A study of Canis lupus familiaris with 25 samples.

Results

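The 17 dogs whose tumours the labels call B-cell lymphoma, out of 25 sequenced, were divided by survival into 5 with short and 12 with long survival, and their expression was compared. The dogs were chosen by the immunophenotype label, with earlier results of these data known. The paper's text counts fewer B-cell dogs than the labels do, and which dog differs is not stated. Each contributed 1 fine needle aspirate of an enlarged lymph node, taken before CHOP began, with no control or repeat libraries. Enrolment allowed 1 earlier injection of prednisone and set no limit on breed, sex or age, and which dogs had the injection and where short and long survival were divided are not given in the sources used here. Each sample name carries a number after the letter S. Numbers 1 to 12 are called the consecutive series here and the odd numbers from 13 the odd series. What this number stands for is not stated. The paper describes 2 clusters of samples that matched isolation by separate technicians, and it proposes some batch effects between them. Whether these clusters match the series is not stated. The consecutive series holds 2 short and 9 long B-cell dogs and the odd series 3 of each.

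B-cell lymphoma arises from the lymphocytes that mature in lymph nodes and make antibody. CHOP combines cyclophosphamide, which alkylates DNA, doxorubicin, which traps topoisomerase on DNA, vincristine, which blocks the growth of microtubules, and the glucocorticoid prednisone, which kills lymphoid cells. An aspirate holds tumour cells together with the other cells of the node, among them T cells and macrophages. In such bulk samples fewer cells of a type and less RNA per cell cannot be told apart.

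The deposited tables list 32704 Ensembl gene identifiers without names, and 0 of them could be matched to a symbol in the reference table. The immunophenotype could therefore not be checked against B-cell markers, nor could genes of other cell types, of CHOP drug handling or of RNA quality be followed. Genes are given below by identifier, and what they encode is not stated.

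Total counts per dog ran from 9592039 to 20685846 in short survival and from 16146182 to 28979456 in long survival. The means were 15992626 and 21178248, so the short dogs had lower totals (exact permutation over 6188 assignments, two-sided, 5 against 12 dogs, p = 0.0249). These totals are sums of the deposited counts over genes, and the number of reads sequenced was not compared. With dogs exchanged only within their series the p was 0.0282. The smallest total was that of dog 029A. Between 13821 and 22631 genes per dog had at least 10 counts, the highest number being in dog 030A, which had short survival. For dog 037A, with long survival, the counts and the deposited FPKM values disagreed. Across 11725 genes, each centred on its mean over all dogs, Pearson's r between the tables was 0.205 for this dog and 0.90 to 0.974 for the other 16. The counts of dog 037A, which entered the count fits, had a higher correlation with the FPKM values of dog 031A, of unknown immunophenotype (r = 0.412), than with its own. Its FPKM values reached at most r = 0.298 with the counts of any other dog. Whether either column belongs to this dog was not tested, and many of the counts and fitted differences below, though not all, are given also without it.

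Between short and long survival, 1 gene of the 19259 tested differed after adjustment, and it was lower in short survival. This is 0.00519% of the genes tested (edgeR's quasi-likelihood test with the series as covariate, Benjamini-Hochberg adjusted p under 0.05). At an unadjusted p under 0.05 there were 856 genes, 4.44% of those tested. Without any difference the threshold would pass a share of about 0.05, so the share in this fit is not above that. The 856 genes are described below as lists, and which of them differ with survival is not known. Of these, 331 were higher in short survival (1.72% of the genes tested) and 525 lower (2.73%). The fit without dog 037A kept 1 adjusted call and had 811 genes at an unadjusted p under 0.05, 4.33% of those it tested. Of the 856 genes, 619 (72.3%) were among the 811 with the same sign. DESeq2 on the same counts called 37 genes, 0.192% of those tested, 11 of them higher and 26 lower. Without dog 037A DESeq2 called 21 of 18733 genes, 4 of them higher and 17 lower. limma on log2(FPKM + 1) called 1 of 13256 genes, or 0.00754%, and 1 of 13313 without dog 037A. The share of genes at the unadjusted threshold depended on the fit. It was 5.88% with DESeq2 and 8.58% with limma (5.56% without dog 037A). In edgeR it was 8.86% without the series as covariate and 3.34% with genes of low count kept. The gene called by edgeR and by limma was the same identifier, and it had the smallest p-value in all 3 tests.

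**Figure D1:**
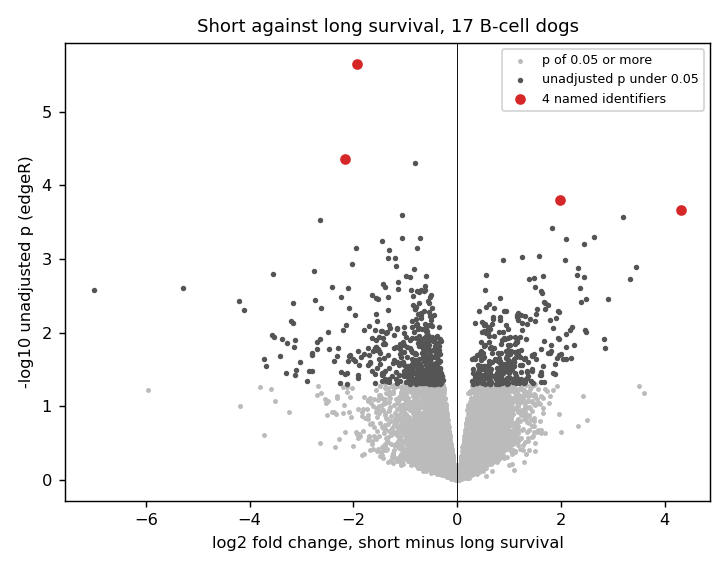
Each point is 1 of 19259 genes, with the log2 fold change of short minus long survival on the horizontal axis and -log10 of the unadjusted edgeR p-value on the vertical axis. Dark points have an unadjusted p under 0.05, 331 to the right and 525 to the left, and the 4 named identifiers are red, with ENSCAFG00000000058 at the top.

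That identifier was ENSCAFG00000000058. Its TMM-scaled CPM, the count relative to the size of the library, in the short dogs were 4.44 in dog 001, 5.43 in dog 009, 5.16 in dog 027A, 4.30 in dog 029A and 7.99 in dog 030A. Among the 12 long dogs they ran from 12.6 to 31.9 with a median of 20.2. Every short dog lay below every long dog, with a gap between 7.99 and 12.6 CPM. The means were 5.47 ± 1.49 (SD, n = 5) and 20.8 ± 6.57 (SD, n = 12), and the level was 3.83-fold lower in short survival (-1.94 ± 0.28 on the log2 scale, standard error; edgeR adjusted p = 0.0428). These values rest on counts of 56 to 155 per dog in short and 216 to 608 in long survival.

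Fitted alone, the consecutive series gave ENSCAFG00000000058 a log2 fold change of -2.08 (edgeR adjusted p = 0.623) and the odd series -1.76 (edgeR adjusted p = 0.916). Since the gene was picked for its p-value in the same 17 dogs, these values describe where its difference lay and are no separate test. In FPKM, which also scales for gene length, the short dogs had 1.58 to 3.45 and the long dogs 4.68 to 12.5. The groups did not overlap there either. The highest FPKM, 12.5, was that of dog 037A, which by counts was the third lowest of the long dogs with 13.9 CPM. Leaving dog 037A out gave a log2 fold change of -2.04 in the counts (edgeR adjusted p = 0.0308) and -1.56 in log2(FPKM + 1) (limma adjusted p = 0.00463).

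The adjusted call for ENSCAFG00000000058 was close to the threshold. With each dog left out in turn, the log2 fold change stayed between -2.09 and -1.86, and the edgeR adjusted p lay between 0.0305 and 0.505. It passed in 6 of 17 such fits, those without dog 006, 012, 017, 022, 030A or 037A, and lost the call in the others. In each of the 17 fits it had the smallest p-value. Without dog 001 the adjusted p was 0.505, the highest of these values. With every library thinned to the smallest total the log2 fold change was -1.87 (edgeR adjusted p = 0.0222). Thinning equalised the total counts and not the number of genes detected or the composition of the libraries.

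ENSCAFG00000005330 had the next smallest p-value among genes with lower values in short survival, and it did not pass adjustment. Its level was 0.751 CPM in dog 001, 1.60 in dog 009, 1.72 in dog 027A, 5.14 in dog 029A and 4.13 in dog 030A. Values of the 12 long dogs ran from 1.85 to 26.4 CPM with a median of 6.22, so the groups overlapped. Within each series they did not. In the consecutive series both short dogs, at 0.751 and 1.60 CPM, lay below all 9 long dogs, which had 1.85 to 8.27. In the odd series the 3 short dogs had 1.72 to 5.14 and the 3 long dogs 11.6 to 26.4 CPM. The gene was picked for its p-value in these dogs with the series as covariate, which favours separation within series. These values therefore describe the difference and are no separate test. The fitted difference with the series as covariate was -2.16 ± 0.40 on the log2 scale (standard error; edgeR adjusted p = 0.322), and without the covariate it was -1.60 (edgeR adjusted p = 0.554). DESeq2 called this gene (log2 fold change -2.12, adjusted p = 0.000135), also in 17 of 17 fits that left out 1 dog. Without dog 037A the edgeR log2 fold change was -2.21 (adjusted p = 0.366). Its FPKM values were low in both groups, 0.108 to 1.27 in short and 0.352 to 4.24 in long survival.

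Of the genes with higher values in short survival none passed edgeR's adjustment. ENSCAFG00000024390, with the smallest p-value in this direction, had 3.38 CPM in dog 001, 1.41 in dog 009, 1.52 in dog 027A, 3.15 in dog 029A and 1.86 in dog 030A. Values of the long dogs ran from 0.193 to 1.36 CPM with a median of 0.455. The groups did not overlap, though only 1.36 and 1.41 CPM separated them. The counts behind these values were 22 to 54 in short and 4 to 38 in long survival. The fitted difference was 1.98 ± 0.41 on the log2 scale (standard error; edgeR adjusted p = 0.719), with 2.20 in the consecutive and 1.76 in the odd series. DESeq2 called it (adjusted p = 0.014) and, with 1 dog left out, called it in 12 of 17 fits. The DESeq2 adjusted p was 0.664 without dog 001 and 0.053 without dog 033A, and in 3 fits DESeq2 gave none. Without dog 037A the edgeR log2 fold change was 1.97 and the DESeq2 adjusted p 0.049.

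ENSCAFG00000024882 owed its place to dog 001. The short dogs had 140.8 CPM in dog 001, 0.959 in dog 009, 1.82 in dog 027A, 6.22 in dog 029A and 6.76 in dog 030A. Values of the long dogs ran from 0.179 to 3.49 CPM with a median of 1.43. Dogs 009 and 027A lay within the range of the long dogs. The fitted difference of 4.32 ± 0.93 on the log2 scale (standard error; edgeR adjusted p = 0.719) became 0.60 without dog 001. In the odd series, which does not include that dog, it was 1.02. DESeq2 called it with all dogs (adjusted p = 0.00721) and in 14 of 17 fits with 1 dog left out. Without dog 001 it was not called, and in 2 fits DESeq2 gave no adjusted p. Without dog 037A the edgeR log2 fold change was 4.33.

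**Figure D2:**
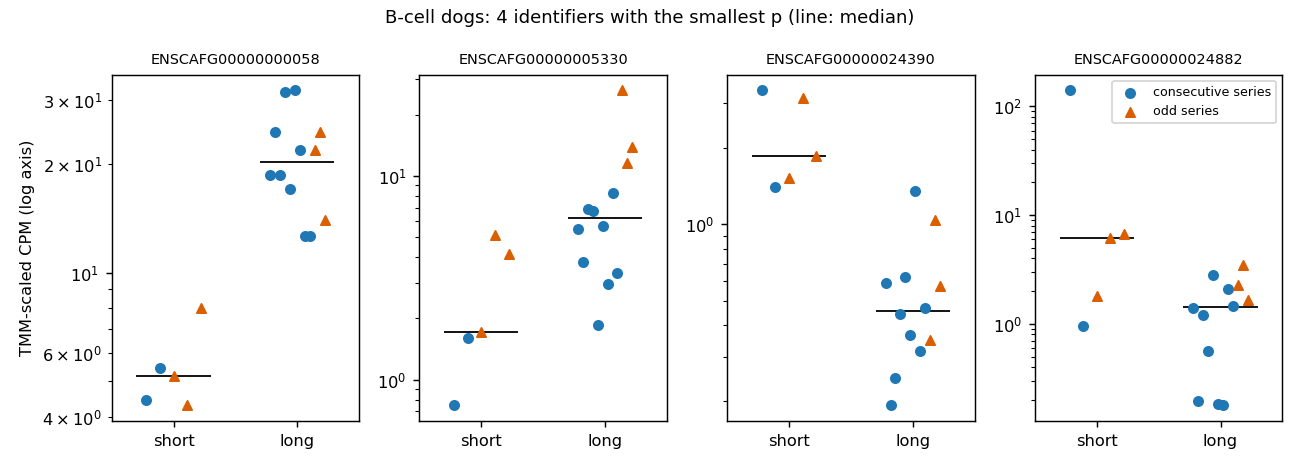
TMM-scaled CPM of the 4 named identifiers on a log axis, 1 point per B-cell dog, with circles for the consecutive and triangles for the odd series and a line at each group's median. Short and long dogs are apart for ENSCAFG00000000058 and ENSCAFG00000024390, apart only within a series for ENSCAFG00000005330, and 1 short dog at 140.8 CPM stands above the rest for ENSCAFG00000024882.

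Few genes kept the groups apart dog by dog. In 2 genes all 5 short dogs lay above all 12 long dogs (0.0104% of the genes tested), and in 9 genes they lay below (0.0467%). All 11 had an unadjusted edgeR p under 0.05, but they were picked for separation in the same counts, so this is no separate test. If dogs were exchanged at random, 1 of 6188 assignments, a share of 0.000162, would give such an order in a given direction. The share of 0.0104% above is not higher than that, and the share of 0.0467% below is. Whether the 9 genes exceed this reference was not tested. In log2(FPKM + 1) the numbers of genes without overlap were again 2 and 9, out of 13256 genes. Without dog 037A they were 3 and 14 out of 18733. A smaller long group separates more easily, and no other dog was left out for this count.

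The genes at the unadjusted threshold were spread unevenly over expression levels. Their share of the genes tested ran from 1.48% under 1 CPM to 6.47% at 10 to 100 CPM. At a mean of 10 to 100 CPM, 307 genes were lower and 93 higher in short survival, out of 6183 tested. At 1 to 10 CPM, 126 were lower and 152 higher out of 6258. At 100 CPM or more, 74 were lower and 36 higher out of 2238, and under 1 CPM, 18 were lower and 50 higher out of 4580. Without dog 037A, 262 genes were lower and 96 higher at 10 to 100 CPM, out of 6183. Precision followed level, with a median standard error of the log2 fold change of 0.72 under 1 CPM and 0.21 at 100 CPM or more. The median log2 fold change was 0.94 among the 331 genes with higher values and -0.71 among the 525 with lower values, against -0.01 over all genes tested. edgeR put the biological variation between dogs at a coefficient of 0.539.

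Single dogs carried much of these lists. The 331 genes were picked for higher values in the short dogs, so a short dog tops most of them through that choice. Shares over all genes are given for reference and are not what this choice alone would give. Dog 001 had the highest CPM of all 17 dogs in 153 of the 331 genes with higher values in short survival (46.2%), against 6.17% of all genes tested. Dog 029A was highest in 69 of the 331 genes (20.8%, against 10.1% of all genes), dog 030A in 56 (16.9%, against 18.7%), dog 009 in 36 (10.9%, against 4.26%) and dog 027A in 7 (2.11%, against 3.04%). Without dog 001 the number of genes at the unadjusted threshold was 510 (2.51% of those tested), 117 higher and 393 lower. Of the 331 genes 79 kept an unadjusted p under 0.05 with the same sign in that fit, and of the 525 genes 262 did. Leaving out another short dog, 009, gave 1253 genes (6.16% of those tested), 496 higher and 757 lower. The 17 fits each leave out 1 dog and differ in the number of genes tested.

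**Figure D3:**
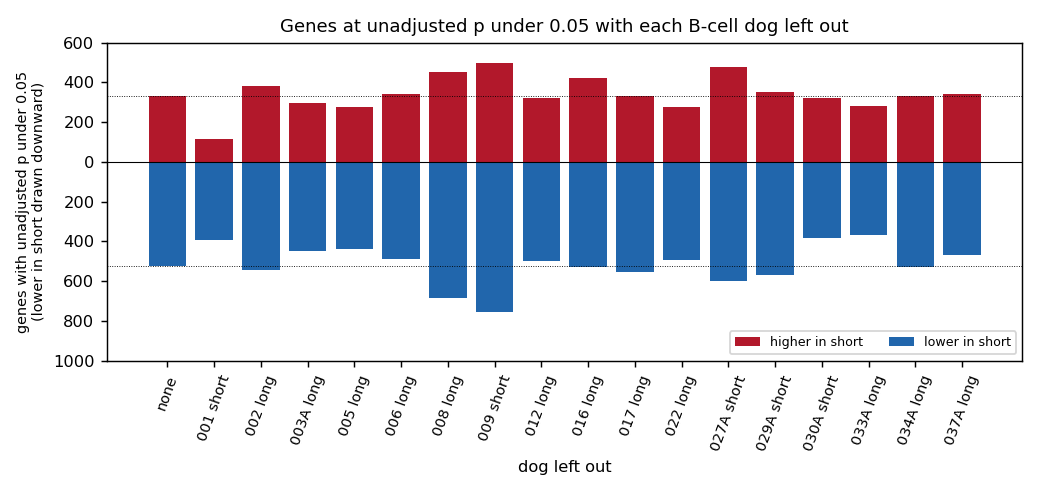
Bars show the number of genes with an unadjusted edgeR p under 0.05 when no dog or the named B-cell dog is left out, those higher in short survival upward and those lower downward, with dotted lines at 331 and 525. The upward bar is shortest, at 117 genes, without dog 001.

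The series held no dogs in common, so their survival differences could be set side by side as separate measurements. Across 17971 genes tested in both, the log2 fold changes of the odd series (3 short, 3 long) and the consecutive series (2 short, 9 long) had a Pearson's r of 0.01 and a Spearman's rho of -0.01. Genes are not independent replicates, and these correlations are descriptions. The same sign was seen in 49.95% of these genes. Among the 759 genes with an unadjusted p under 0.05 in the odd series it was seen in 56.0%, and among the 618 such genes of the consecutive series in 59.2%. Of these, 57 genes were in both lists, 7.51% of the first and 9.22% of the second, and 44 of the 57 had the same sign. Beside the 7.51%, 3.40% of all genes tested in the consecutive series passed this threshold. Beside the 9.22%, 3.98% of all genes tested in the odd series did. By level, r was -0.01 under 1 CPM, 0.05 at 1 to 10, 0.10 at 10 to 100 and 0.04 at 100 CPM or more. Neither series alone gave a gene under an edgeR adjusted p of 0.05, with 789 genes at the unadjusted threshold in the odd and 642 in the consecutive series. Without dog 037A the odd series again had 0 adjusted edgeR calls, r with the consecutive series was 0.04 across 18245 genes tested in both, and the sign was the same in 51.0%. Of the 549 such genes with an unadjusted p under 0.05 in the odd series, 63.4% had the same sign. The difference between the series was also tested as an interaction. No gene passed (0 with edgeR and 0 with DESeq2 after adjustment), with 587 genes, or 3.05%, at an unadjusted p under 0.05 in edgeR.

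**Figure D4:**
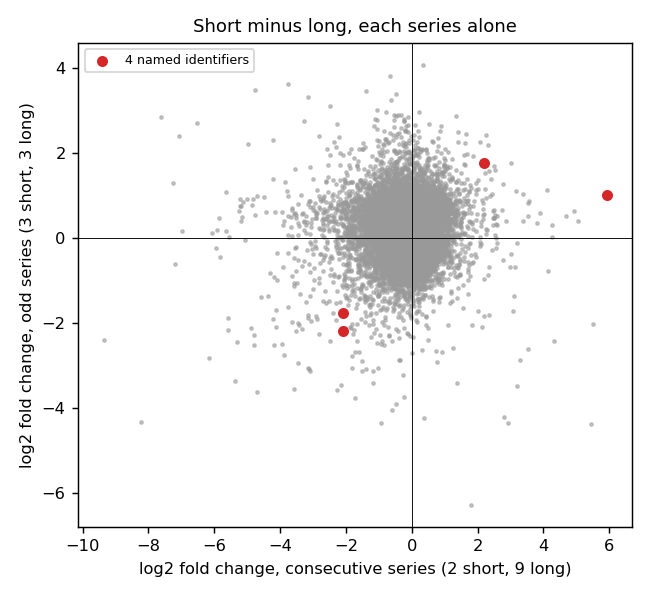
Log2 fold change of short minus long survival for each of 17971 genes, from the consecutive series alone on the horizontal and the odd series alone on the vertical axis. The cloud shows no slope (r = 0.01), and the 4 named identifiers in red lie in the quadrants of equal sign. These 4 were picked for their p-values in the same dogs.

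Series and survival overlapped, since 3 of 5 short but 3 of 12 long dogs belong to the odd series. In the same fit 3048 of the 19259 genes tested differed between the series after adjustment, and 1824 of 18733 without dog 037A. Without the series as covariate 1707 genes (8.86% of those tested) had an unadjusted p under 0.05 for survival. Of these, 718 were shared with the same sign, 42.1% of the 1707 and 83.9% of the 856.

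The 8 dogs with other labels, 3 T-cell and 5 of unknown immunophenotype, all in the odd series, entered none of the fits above. Their CPM values were scaled together with the other dogs. For ENSCAFG00000005330 the 3 short dogs among them had 1.08 to 3.89 CPM and the 5 long dogs 4.53 to 29.7, without overlap, as within each B-cell series. The difference within immunophenotype was -2.12 on the log2(CPM + 1) scale (exact permutation, two-sided, 3 against 5 dogs, p = 0.0667, adjusted 0.267 over 4 genes). The smallest p that 30 assignments allow is 0.0333. For ENSCAFG00000000058 the short dogs had 1.44 CPM in dog 028A, 0.68 in dog 035A and 18.5 in dog 024A, and the long dogs 5.61 to 34.3 (exact permutation p = 0.167, adjusted 0.267). Dog 024A thus lay among the long dogs. Its counts and FPKM values had a correlation of 0.743 across the same 11725 genes, under the range of the 16 B-cell dogs. Its FPKM of this gene, 4.71, also lay among those of the long dogs of unknown immunophenotype, 1.77 to 4.87, so both tables hold the exception. The other 2 short dogs lay below all 5 long dogs. The groups overlapped for ENSCAFG00000024390 (0.721 to 1.57 against 0.172 to 1.22 CPM, exact permutation p = 0.2) and ENSCAFG00000024882 (1.52 to 2.26 against 0.945 to 3.77 CPM, exact permutation p = 0.5). These genes were looked up after their values in the B-cell dogs were known, and the test was chosen after the values of the 8 dogs were seen.

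**Figure D5:**
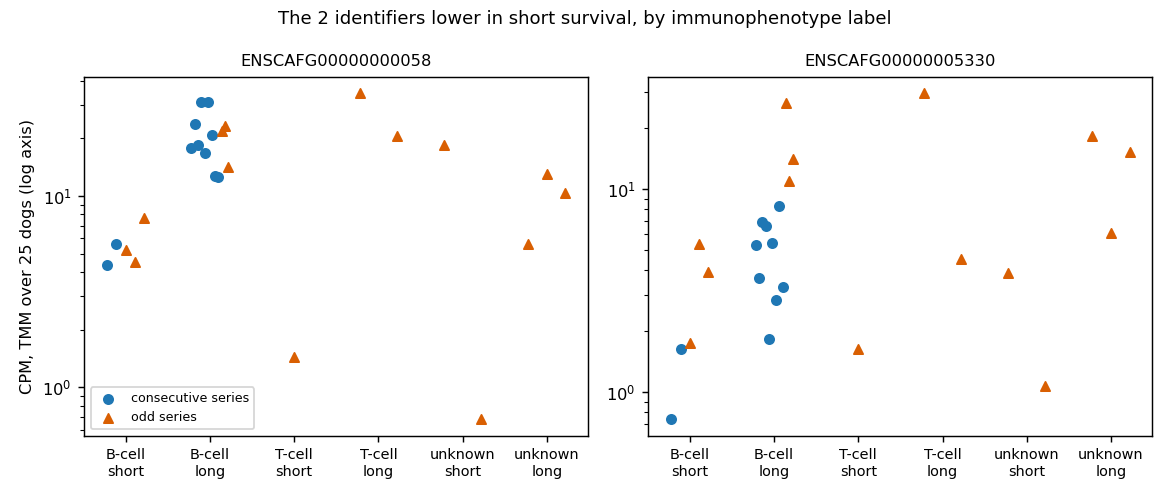
CPM of the 2 identifiers with the smallest p-values among genes lower in short B-cell dogs, on a log axis, 1 point per dog for all 25 dogs, by immunophenotype label and survival, scaled by TMM over all dogs. For ENSCAFG00000005330 short dogs lie under long dogs in each label apart from overlap between the B-cell series, and for ENSCAFG00000000058 the short dog of unknown immunophenotype at 18.5 CPM lies among the long dogs.

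For the longer lists the 5 dogs of unknown immunophenotype, 2 short and 3 long, were compared gene by gene. The mean log2 CPM was higher in their short dogs for 57.1% of the 331 genes, for 45.7% of the 525 genes and for 52.8% of all genes tested. The median differences were 0.08, -0.07 and 0.03 on the log2 scale.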

How the data were processed

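The members and lists were chosen with earlier results of these data known. RNA from lymph node aspirates was sequenced as single reads, which the authors aligned with HISAT2 2.1.0 to CanFam3.1 and its Ensembl annotation and quantified with StringTie 1.3.3 (versions per the submitters' processing notes). The deposited counts are whole numbers, 1 per gene and dog, without normalization. The program that made them and its strand setting are not given in the sources used here, so overlapping genes and near-identical copies are uncertain. Ballgown gave the authors' FPKM values. Columns of per-sample values not used numbered 0. The labels and the paper's text differ in how many dogs they call B-cell, and the labels were followed.

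Genes of the 17 B-cell dogs were kept by filterByExpr, scaled by TMM and tested in edgeR 4.0.16 under R 4.3.3 by quasi-likelihood (glmQLFit, glmQLFTest), with Benjamini-Hochberg adjustment over all genes tested. A standard error is the log2 fold change divided by the square root of F. Alternatives were DESeq2 1.42.0 and, where FPKM averaged 1 or more, limma-trend 3.58.1 on log2(FPKM + 1). All were tested on simulated counts. Totals of 9592039 to 28979456 counts leave genes with low counts imprecise. The p-values of the fits weigh a difference between groups against the spread between dogs. By rule, 12 genes with a symbol in each direction and members of gene lists would be named, but with 0 symbols matched it fell to the 2 identifiers with the smallest p in each direction, and the gene lists were not run.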

Additional observations from a re-analysis of the deposited data

Results flagged for a closer look

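In 9 measures the highest or lowest of the 5 short B-cell dogs was compared with its nearest neighbour, and 1 value stood far apart. Dog 001 had 140.8 CPM of ENSCAFG00000024882 and the next dog 6.76. The gap between them was 0.959 of the whole range. The limit used lets about 1 in 20 groups of normally distributed values through by chance. Whether CPM values follow that distribution was not tested, and this gene was picked for its small p-value in the same dogs. The FPKM of dog 001 was 17.0 and the next highest of the short dogs 0.991, so both tables hold the difference. Why dog 001 differs was not tested.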

How the results depend on the processing

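The number of genes called after adjustment, 1 with edgeR, became 37 when DESeq2 was used, 0 when genes of low count were kept (1076 unadjusted), 0 in the odd series alone (789 unadjusted) and 0 in the consecutive series alone (642 unadjusted). Leaving out each dog gave 0 to 1 with edgeR, and 3 (without dog 001) to 100 (without dog 009) with DESeq2, a check added after seeing the data. It was 1, and the same gene, with no covariate, the suffix letter of the dog's identifier, RLE factors, limma at pseudocounts of 1 and 0.1, and thinned counts. The 856 genes at the unadjusted threshold (4.44% of those tested) became 1707 with no covariate (8.86%) and 1942 with limma without a filter (6.19%). With 1 dog left out they ran from 510 (2.51%, without dog 001) to 1253 (6.16%, without dog 009) with edgeR. With DESeq2 they then ran from 657 (3.23%) to 1606 (7.90%). In thinned counts they were 825 (5.18%). The share higher in short survival was 38.7%, 46.7% with RLE factors, 45.1% with DESeq2, 67.1% with limma without a filter and 22.9% without dog 001. The cause of these shifts was not tested. The 11 genes without overlap became 17 without dog 037A, where the smaller long group separates more easily. No interaction passed adjustment without a filter (0, with 839 or 2.61% unadjusted), without dog 037A (0, with 523 or 2.79%) or with DESeq2 (0, with 795 or 4.13%). The log2 fold changes of the 4 named genes kept their sign in every B-cell fit that tested them, while in the 8 other dogs ENSCAFG00000024882 had a difference of -0.27. The difference in mean total count was -5185622 and -5411571 without dog 037A (exact permutation p = 0.0243). No paired analysis was possible because each dog gave 1 sample and the replicate numbers were assigned here. Gene lists were not run. Depth limits genes of low count, with 4 counts of ENSCAFG00000024390 in the lowest dog.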
